A study of Mus musculus with 33 samples.

Results

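Mouse blastocysts cloned from female hippocampal CA1 pyramidal neurons (XX CA1 clones, n = 4) were compared with blastocysts cloned from cumulus cells, the somatic cells that surround the ovulated oocyte (cumulus clones, n = 3). These are 7 of the 33 arrays of the series, chosen by their labels. Each array held the RNA of 1 blastocyst of the strain (C57BL/6NxDBA/2)F1. In somatic cell nuclear transfer the nucleus of a donor cell is placed in an enucleated oocyte, whose cytoplasm resets the donor's chromatin. All 7 embryos had been given trichostatin A (TSA), which blocks histone deacetylases. Its dose was 50 nM, through 1 h of activation, 5 h with cytochalasin B and 2 h afterwards, and culture lasted 96 h, per the labels. Both groups therefore shared sex, strain, cloning, TSA and culture time, and differed in the donor cell: an adult neuron in the XX CA1 clones and a cumulus cell in the cumulus clones. Other groups used here for context were blastocysts cloned with TSA or made by in vitro fertilisation. The clones came from female and male Purkinje neurons (XX Purkinje and XY Purkinje, n = 4 each), male CA1 neurons (XY CA1, n = 4) and neonatal Sertoli cells (Sertoli, n = 4). The fertilised embryos were female (XX IVF, n = 3) and male (XY IVF, n = 7), and the labels give no TSA for them. The labels do not tie embryos to donor animals or transfer sessions, so the p-values speak for the scatter among these embryos alone, part or all of which may be technical.

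The 2 groups also differed in the array set. The 4 XX CA1 arrays lay on 1 slide and were read with scanner G2505C, while the 3 cumulus arrays lay on another slide and were read with scanner G2505B in an earlier study by the same laboratory, per the file headers and the series' design text. Donor cell, slide, scan and array set cannot be told apart in this comparison. XX CA1 arrays had a 75th percentile of 1030 to 1466 intensity units, and cumulus arrays one of 999.7 to 1059. Between 54.5% and 61.1% of spots were well above background on XX CA1 arrays and between 55.6% and 57.6% on cumulus arrays. Levels below are log2 of the processed signal over the 75th percentile of its own array, with a shared floor at -3.43, and a difference is the XX CA1 mean minus the cumulus mean.

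A blastocyst has an outer trophectoderm, which builds the placenta, and an inner cell mass that holds the pluripotent epiblast and the primitive endoderm. Genes for mitochondria, ribosomes and DNA replication are active at this stage, when the embryo's own genome has taken over from the RNA stored in the egg. Clones often differ from fertilised embryos in X-linked and imprinted genes and in the extraembryonic lineages.

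The 4 XX CA1 blastocysts and the 3 cumulus blastocysts carried most markers of the blastocyst's lineages. All 5 inner cell mass markers and all 6 trophectoderm markers were above background on all 7 arrays. Of the 4 primitive endoderm markers, Gata6 and Pdgfra were well above the floor on all 7 arrays, Sox17 ranged between -3.43 and 4.76 in XX CA1 clones and between 1.06 and 4.48 in cumulus clones, and Gata4 was on or near the floor in both groups (means -3.40 and -3.26). Of the 5 sex-linked genes checked, none of the 4 Y-linked genes was above background on any of the 7 arrays, and Xist, the RNA that coats the inactive X chromosome, was at 4.71, 5.01, 5.65 and 4.89 on the XX CA1 arrays and 5.40, 5.73 and 4.11 on the cumulus arrays. Most markers of the donor cells were at or near the floor. The CA1 neuron genes Fibcd1, Neurod6, Slc17a7, Nrgn, Snap25 and Syt1 were above background on none of the 7 arrays. The same held for the cumulus cell genes Has2 and Tnfaip6. Other CA1 neuron genes were above background on some arrays. Camk2a was so on 4 XX CA1 arrays and 2 cumulus arrays, and Rbfox3 on 2 and 0, both at or near the floor. Nefl was above background on 4 and 3, at -3.43 to 1.51 in XX CA1 clones and -3.43 to -0.63 in cumulus clones. Summed over 10 CA1 neuron markers, the level relative to the 75th percentile was 15.5 to 20.6 on XX CA1 arrays and 8.29 to 15.2 on cumulus arrays, most of it from Wfs1, a membrane protein of the endoplasmic reticulum. Summed over 9 cumulus cell markers, the level relative to the 75th percentile was 1.32 to 3.07 on XX CA1 arrays and 0.555 to 0.735 on cumulus arrays, nearly all of it from Amhr2, the receptor of anti-Müllerian hormone. Amhr2 was 1.49, 1.05, 1.07 and 0.11 on XX CA1 arrays and -0.67, -1.39 and -0.63 on cumulus arrays, a difference of 1.83 (SE 0.54, adjusted p = 0.0178) whose call was lost without XX CA1 replicate 1 or cumulus replicate 2. The cumulus marker Amhr2 was thus higher in the neuron-derived clones. Dim cumulus markers, at or near the floor in both groups, went both ways. Amh was above background on 3 cumulus arrays and 0 XX CA1 arrays, and Ptx3 on 1 and 0. Fshr was above it on 1 cumulus array and 3 XX CA1 arrays, and Cyp19a1 on 1 and 4. The part of donor cell RNA in other results was not tested. Of 19 pan-neuronal genes tested, 0 passed the test in limma's fit, against 19.3% of all genes.

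The comparison of the 2 donors called 3048 of 15793 genes at an adjusted p under 0.05 (limma, Benjamini-Hochberg over all genes), which is 19.3%. In XX CA1 clones 2191 genes (13.9%) were higher and 857 (5.43%) were lower. The excess of higher genes depended on the scaling, since array-median scaling gave 1142 higher and 944 lower genes, and quantile normalisation gave 1409 and 1078. It also sat among bright genes. Among the 5265 genes with the highest levels 1433 were higher and 225 lower, whereas among the 5264 with the lowest 177 were higher and 215 lower. The median difference over all genes was 0.12, and it was 0.31 with normexp background correction and 0.32 in the authors' deposited value table. The groups did not overlap for 2624 of the called genes, and for 27.6% of all genes tested. Without XX CA1 replicate 1 the count was 1795 genes and without cumulus replicate 2 it was 1787, and with normexp background correction it was 801.

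**Figure D1:**
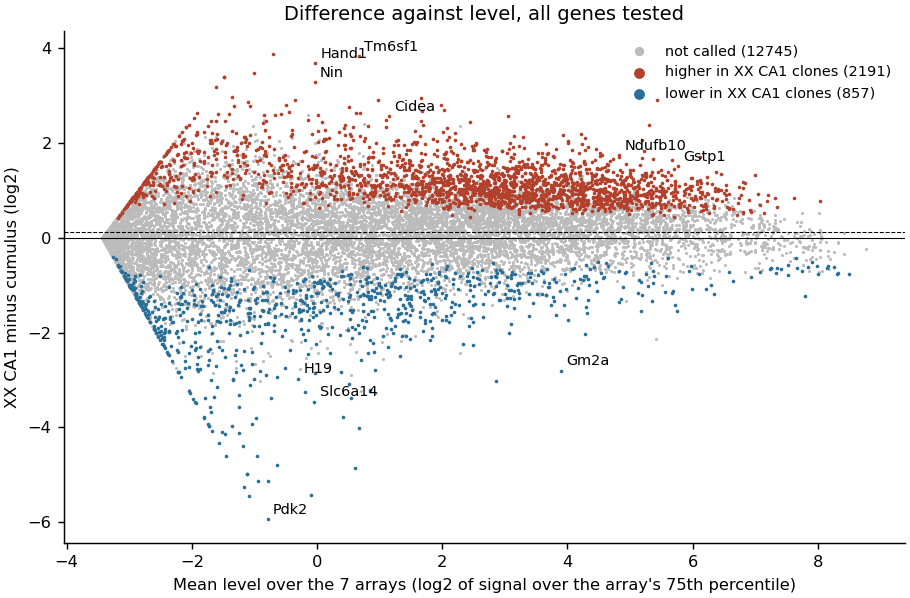
Difference between XX CA1 clones and cumulus clones (log2, vertical axis) against the mean level over the 7 arrays (log2 of signal over the 75th percentile, horizontal axis) for all 15793 genes tested. Red points are the 2191 genes called higher and blue points the 857 called lower in XX CA1 clones. The dashed line is the median of all genes, 0.12. The higher calls crowd at high levels, and the largest differences are lower genes at low mean level.

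The broadest shift was in mitochondrial genes. Mitochondria make ATP through 4 electron-carrying complexes of the respiratory chain and an ATP synthase, and translate their own few genes on a dedicated ribosome whose proteins come from the nucleus. Of 78 mitochondrial ribosomal protein genes tested, 41 were higher and 2 lower in XX CA1 clones, with a median difference of 0.64. Of 92 respiratory chain and ATP synthase genes, 39 were higher and 3 lower, with a median of 0.66. Among the 5265 brightest of all genes 27.2% were higher and 4.27% lower, with a median of 0.37. These medians stood 0.52 and 0.54 above the median of all genes, and over 18 alternative settings they stayed above it, by 0.22 to 0.57 for the mitochondrial ribosome and by 0.10 to 0.63 for the respiratory chain. The number of calls was less steady. With normexp background correction 3 mitochondrial ribosomal and 5 respiratory chain genes were called higher, without XX CA1 replicate 1 it was 24 and 20, and without cumulus replicate 2 it was 26 and 21. Without cumulus replicate 3 it was 26 for both.

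Mrpl28, a protein of the large mitochondrial subunit, was at 5.85, 5.28, 4.63 and 5.30 in XX CA1 clones and at 3.73, 3.46 and 3.40 in cumulus clones, a difference of 1.74 (SE 0.28, adjusted p = 0.000205). Mrpl49, of the same subunit, was at 5.04, 4.84, 4.20 and 4.96 in XX CA1 clones and at 3.18, 3.27 and 3.03 in cumulus clones (difference 1.60, SE 0.20, adjusted p = 1.78e-05; its other probes gave 0.60 and 1.64). Every XX CA1 array lay above every cumulus array for both genes, and XX CA1 replicate 3 was the lowest of its group. Mrpl22 (1.46) and Mrpl55 (1.54) followed, and Mrps25, Mrps12 and Mrps6 of the small subunit were higher by 1.33, 1.32 and 1.32. The exceptions were Mrpl9 and Mrpl2, which were lower by -1.08 and -0.91 on the log2 scale.

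In the respiratory chain, Ndufb10, an accessory subunit of complex I, was at 6.4, 5.63, 4.90 and 5.39 in XX CA1 clones and at 4.05, 3.41 and 4.04 in cumulus clones (difference 1.75, SE 0.36, adjusted p = 0.00163). Uqcr10 of complex III was at 7.76, 6.81, 6.11 and 6.71 in XX CA1 clones and at 5.40, 4.74 and 5.31 in cumulus clones (difference 1.70, SE 0.27, adjusted p = 0.000153). Atp5k of the ATP synthase was at 5.52, 4.36, 3.50 and 4.30 in XX CA1 clones and at 2.88, 2.35 and 2.75 in cumulus clones (difference 1.76, SE 0.32, adjusted p = 0.000557). No array of one group entered the range of the other for these 3 genes, and XX CA1 replicate 1 was highest and replicate 3 lowest each time. Among the genes called lower were core catalytic parts, Sdha of complex II (-0.95) and Atp5a1 of the ATP synthase (-0.60).

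Nuclear respiratory factor 1 (NRF1) is a transcription factor known to bind promoters of many mitochondrial genes. The letters GCATGCG, a core of its site, were searched on both strands (CGCATGC on the other, with which it can overlap) in RefSeq promoter windows of 300 bases, 250 before and 50 after the gene start. They were present for 13 of the 76 respiratory chain genes with a window (17.1%), for 8 of 69 mitochondrial ribosomal genes (11.6%), for 5 of 57 cytosolic ribosomal genes (8.77%) and for 739 of the 10567 genes tested that had a window (6.99%). The 2 mitochondrial lists ran opposite ways: 8 of 33 respiratory chain genes called higher held the letters against 5 of 43 others, and 2 of 37 mitochondrial ribosomal genes called higher against 6 of 32 others. A match describes the letters and is not a site shown to be bound. The 3 sequences below are shown so that the place of the match can be compared. They are the 150 bases before the start of the respiratory chain genes called higher with the largest differences and a match in that stretch, 5′ to 3′ on the gene's strand (build GRCm38.p6, RefSeq), with the leftmost match in capitals. It begins 49, 41 and 112 bases before the start.
Atp5k, chr5:108434400-108434549, minus strand: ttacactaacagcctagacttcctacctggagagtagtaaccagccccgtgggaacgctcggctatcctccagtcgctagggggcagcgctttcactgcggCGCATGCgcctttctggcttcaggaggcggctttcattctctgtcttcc
Atp5g2, chr15:102671048-102671197, minus strand: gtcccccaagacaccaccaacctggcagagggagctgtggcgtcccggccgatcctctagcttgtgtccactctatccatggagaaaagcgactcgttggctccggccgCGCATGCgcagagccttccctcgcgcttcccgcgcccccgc
Ndufaf4, chr4:24897933-24898082, plus strand: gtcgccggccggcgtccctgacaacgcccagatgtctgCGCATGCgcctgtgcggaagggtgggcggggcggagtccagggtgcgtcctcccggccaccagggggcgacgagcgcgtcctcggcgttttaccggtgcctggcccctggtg
Atp5g2, a subunit of the ATP synthase ring, was higher by 1.39 (adjusted p = 0.000649), and Ndufaf4, an assembly factor of complex I, by 0.83 (adjusted p = 0.0449).

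Cytosolic ribosomal protein genes differed less. Of 77 tested, 22 were higher and 1 lower, with a median of 0.38, close to the values of the 5265 brightest genes (27.2% higher, median 0.37). That median stood 0.25 above that of all genes, but with normexp background correction it was -0.13 relative to all genes, with 1 gene called higher. Without XX CA1 replicate 1 the count was 11 higher, and without cumulus replicate 2 or 3 it was 13. Rps10, of the small subunit, was at 5.93, 5.34, 4.93 and 5.32 in XX CA1 clones and at 3.64, 3.79 and 3.82 in cumulus clones (difference 1.63, SE 0.34, adjusted p = 0.00174). Rpl36 and Rpl37 of the large subunit were both higher by 1.39. Rpl5 was lower (-0.62). Of 35 proteasome genes 7 were higher and 1 lower, which is 22.9% called and near the 19.3% of all genes.

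The levels of the mitochondrial lists on the other arrays place the difference. The median of the mitochondrial ribosomal list was 3.81 to 4.36 on XX CA1 arrays and 3.07 to 3.27 on cumulus arrays, and it was 3.41 to 3.62 on the XX IVF arrays, which belong to the same array set as the cumulus arrays. The cumulus arrays held the lowest 3 of all 33 values for this list. For the respiratory chain the medians were 4.80 to 5.87 on XX CA1 arrays, 4.43 to 4.57 on cumulus arrays and 4.61 to 5.16 on XX IVF arrays. A pair of comparisons that share no array with this one was run in the same fit. XX Purkinje clones minus XX IVF embryos crosses the same array sets. It also sets cloning against fertilisation and TSA against no TSA, which cannot be told apart from the array set in it. It called 3114 genes (19.7%: 13% higher and 6.67% lower). In it 27 mitochondrial ribosomal genes were higher and 0 lower, 20 respiratory chain genes higher and 0 lower, and 33 cytosolic ribosomal genes higher and 0 lower. XY CA1 clones minus Sertoli clones, which stays within 1 array set, called 1869 genes (11.8%: 5.52% higher and 6.32% lower) and had 9 higher and 2 lower, 3 higher and 2 lower, and 4 higher and 1 lower in these lists. The part of the array set in the difference was not tested.

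**Figure D2:**
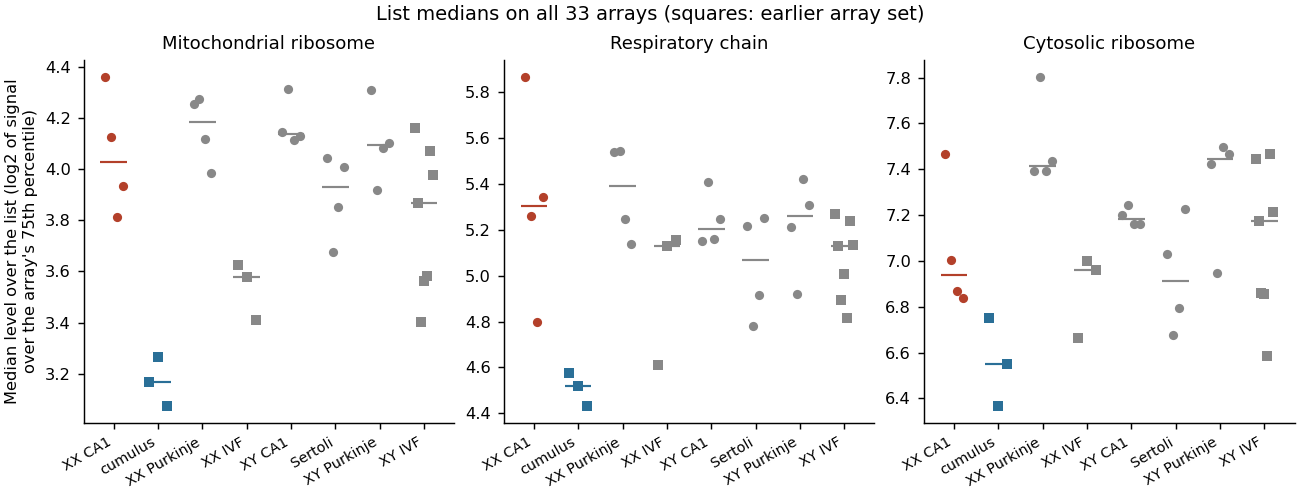
Median level over the genes of 3 lists (log2 of signal over the 75th percentile, vertical axes that do not start at 0) on each of the 33 arrays, by group. Squares mark the earlier array set, circles the present one, and short lines the group medians. The 3 cumulus arrays are the lowest of all for the mitochondrial ribosome, and XX CA1 arrays lie at 3.81 to 4.36.

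Genes of DNA replication and mitosis were the next group. Of 50 tested 18 were higher in XX CA1 clones and 0 lower, with a median of 0.43, which stood 0.31 above that of all genes and 0.01 above it with normexp background correction, where 1 gene was called. The share called was 36%, against 19.3% of all genes. The list medians of single arrays overlapped, at 3.24 to 3.60 on XX CA1 and 2.81 to 3.28 on cumulus arrays. In XY CA1 minus Sertoli 1 of these genes was higher and 7 lower (median -0.19), and in XX Purkinje minus XX IVF 3 and 5. Without cumulus replicate 2 the count was 8 higher and 1 lower, and without XX CA1 replicate 1 it was 11 higher. Ccne1, the cyclin that starts S phase, was at 6.05, 6.09, 5.51 and 5.40 in XX CA1 clones and at 4.70, 4.02 and 4.57 in cumulus clones (difference 1.33, SE 0.24, adjusted p = 0.000492). Mcm7, of the replicative helicase, was at 6.90, 6.47, 6.12 and 6.60 in XX CA1 clones and at 5.50, 4.99 and 5.31 in cumulus clones (difference 1.26, adjusted p = 0.000383). The groups did not overlap in either gene. Mcm2, Mcm3, Mcm4 and Mcm6 were also called higher, by 1.05, 0.91, 0.77 and 1.08, as were the origin recognition gene Orc1 (1.27) and the mitotic genes Ccnb2 (1.09), Aurka (0.89) and Plk1 (0.79).

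Some genes that load or make up chromatin were called too. Chaf1b, a subunit of the chaperone that loads histones behind the replication fork, was at 3.39, 3.64, 3.36 and 3.36 in XX CA1 clones and at 1.92, 1.40 and 1.83 in cumulus clones (difference 1.72, SE 0.22, adjusted p = 1.93e-05). H2ax, the histone variant marked at DNA breaks, was higher by 1.69 (adjusted p = 0.000509). Of 18 genes in the list of histones and replication-linked histone handling 6 were higher, 0 lower and 12 not called (33.3% called), and 2 were higher with normexp. Of 32 genes of the p53 response 6 were higher and 0 lower, a share of 18.8% near the 19.3% of all genes. The damage sensor Ddb2 was higher by 0.96, and Cdkn1a, the p53 target that halts the cycle, was not called (-0.69, adjusted p = 0.555). Of 30 apoptosis genes 8 were higher and 0 lower (26.7% called), the higher ones including the BCL2-family gene Bok (1.55). Bmf, of the same family, was higher by 1.75, but its other probes gave 0.00 and 0.04.

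**Figure D3:**
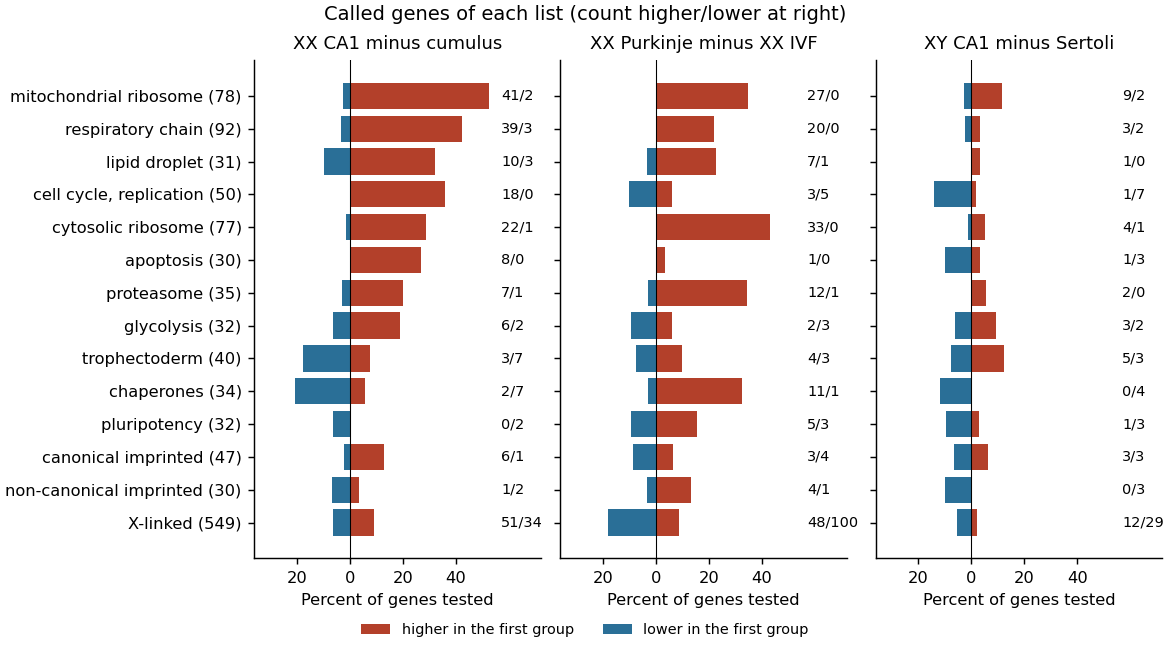
Percent of the tested genes of 14 lists called higher (red, to the right) and lower (blue, to the left) in the first named group of each of 3 comparisons, with counts higher/lower at the right and list sizes in brackets. In XX CA1 minus cumulus the mitochondrial ribosome (41/2) and the respiratory chain (39/3) have the largest shares called higher among the lists drawn, and trophectoderm (3/7) and chaperones (2/7) have more lower than higher genes.

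In the trophectoderm list the lower calls outnumbered the higher ones. Of 40 genes tested 7 were lower, 3 higher and 30 not called in XX CA1 clones, and the list median was -0.20 relative to all genes. The share called was 25%, against 19.3% of all genes. With normexp background correction 1 gene was lower and 1 higher. Gm2a, a lysosomal lipid-binding activator protein, was at 2.33, 1.82, 3.63 and 3.00 in XX CA1 clones and at 4.73, 5.80 and 5.97 in cumulus clones (difference -2.80, SE 0.67, adjusted p = 0.00452). The tetraspanin Tspan8 was at 3.42, 3.46, 3.16 and 3.00 in XX CA1 clones and at 5.06, 4.84 and 5.09 in cumulus clones (difference -1.73, adjusted p = 0.00467). The FGF receptor Fgfr2 was at 3.43, 3.57, 4.05 and 3.60 in XX CA1 clones and at 5.13, 5.27 and 4.99 in cumulus clones (difference -1.46, adjusted p = 0.00386). In all 3 genes every XX CA1 array was below every cumulus array, although the other probes of Fgfr2 gave -0.28 and -0.37. Epithelial junction genes were also among the lower ones: the tight junction claudins Cldn4 (-1.30) and Cldn7 (-0.63), and E-cadherin, Cdh1 (-1.02).

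Hand1, a transcription factor of trophoblast giant cells, was the largest of the higher ones. It was at 2.26, 0.84, 2.50 and 0.60 in XX CA1 clones, and at -3.43, -3.43 and 0.44 in cumulus clones, where 2 of 3 arrays lay on the floor (difference 3.69, SE 0.80, adjusted p = 0.00236). Hand1 also differed between XX Purkinje clones and XX IVF embryos (3.79, adjusted p = 0.00163). The lineage-defining factor Cdx2 was not called: 6.77, 5.94, 6.14 and 6.26 in XX CA1 clones and 6.50, 6.72 and 6.41 in cumulus clones (difference -0.26, SE 0.34, adjusted p = 0.676).

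Of 32 pluripotency genes 0 were higher and 2 lower, 6.25% called against 19.3% of all genes. Pou5f1 was at 3.47, 3.81, 4.27 and 4.14 in XX CA1 clones and at 4.0, 4.02 and 4.40 in cumulus clones (difference -0.22, SE 0.27, adjusted p = 0.658). Nanog was at 2.09, 1.86, 3.17 and 2.57 in XX CA1 clones and at 3.61, 3.51 and 4.12 in cumulus clones, which do not overlap, but the difference of -1.32 (SE 0.54) did not pass the test (adjusted p = 0.0837). Sox2 differed by 0.99 (adjusted p = 0.0918). Sall4, a zinc-finger partner of these factors, was lower: 3.06, 3.26, 4.31 and 3.71 in XX CA1 clones against 4.80, 5.06 and 4.71 in cumulus clones (difference -1.27, SE 0.30, adjusted p = 0.00381). The other probe of Sall4 gave 0.64, so its direction rests on 1 probe.

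In the primitive endoderm list 3 of 28 genes were higher and 1 lower, 14.3% called against 19.3% of all genes. The lineage factor Gata6 was at 6.85, 6.28, 6.55 and 6.33 in XX CA1 clones and 6.12, 5.67 and 5.74 in cumulus clones (difference 0.66, adjusted p = 0.0311), a call that was lost without XX CA1 replicate 1 or without cumulus replicate 2 or 3. Apoe, a lipoprotein component, was higher by 1.85 (adjusted p = 0.00185), and the laminin chain Lamb1 was lower (-1.62, adjusted p = 0.022), with XX CA1 replicate 4 inside the range of the cumulus clones and the call lost without XX CA1 replicate 1, 2 or 3 or cumulus replicate 1 or 3.

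**Figure D4:**
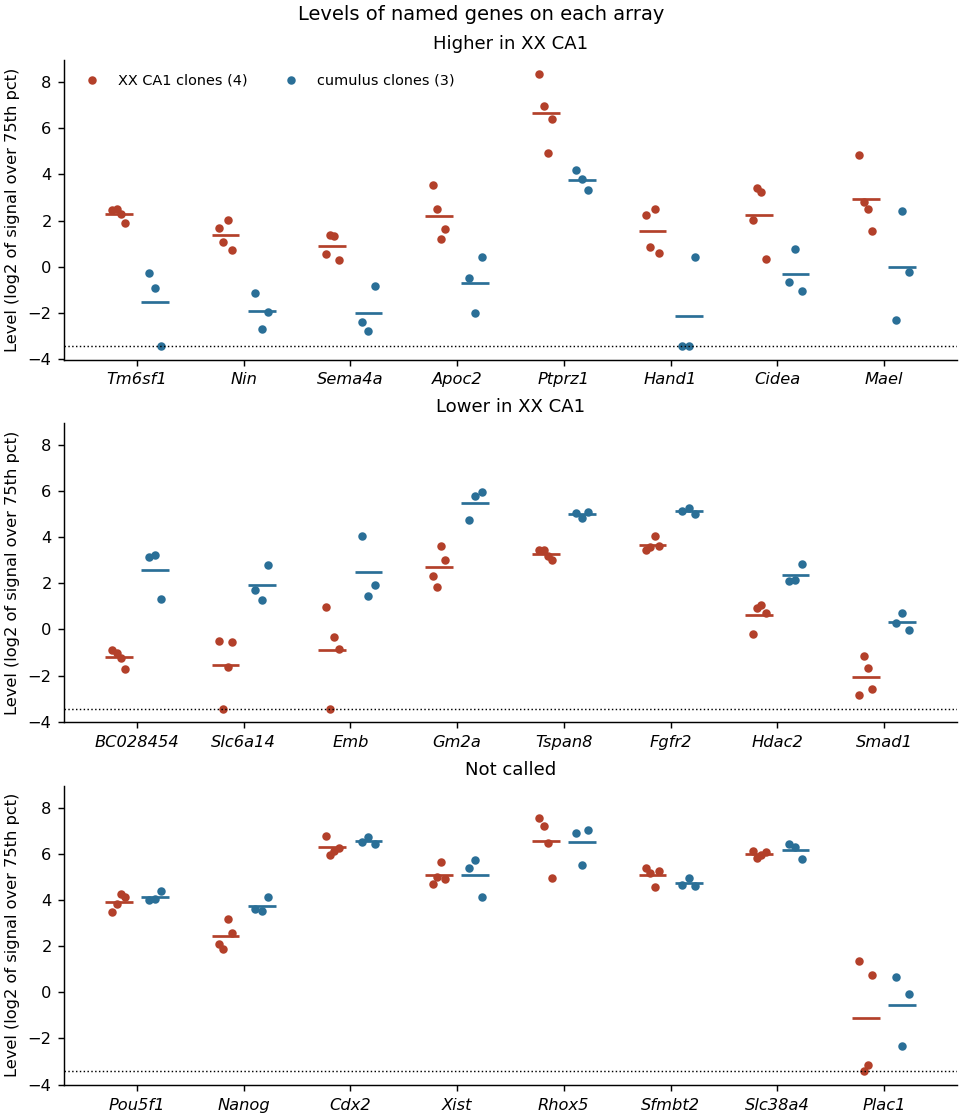
Level of 24 genes (log2 of signal over the 75th percentile, vertical axis) on each array, with XX CA1 clones (red, 4 arrays) left of cumulus clones (blue, 3 arrays) for each gene. Short lines are group means and the dotted line is the floor at -3.43. The top row shows genes called higher in XX CA1 clones, the middle row genes called lower and the bottom row genes not called.

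Among individual genes, the largest rise named by rank, among genes well above background on all 7 arrays, was that of Tm6sf1, a transmembrane protein gene. The scanner's background flag and the shared floor differ, and 1 cumulus array of this gene lay on the floor. It was at 2.48, 2.52, 2.30 and 1.91 in XX CA1 clones and at -0.25, -0.91 and -3.43 in cumulus clones (difference 3.83, SE 0.87, adjusted p = 0.00313), and its other probe gave 3.63. Nin, which encodes the centrosomal protein ninein, was at 1.66, 1.06, 2.01 and 0.74 in XX CA1 clones and at -1.12, -2.68 and -1.96 in cumulus clones (difference 3.28, adjusted p = 0.00108). Sema4a, a membrane semaphorin, was at 0.57, 1.39, 1.33 and 0.30 in XX CA1 clones and at -2.40, -2.79 and -0.82 in cumulus clones (difference 2.90, adjusted p = 0.000376). These genes were ranked among those whose groups do not overlap, so their separation follows from the choice. Another probe of Nin gave 1.35 and was not called.

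Ptprz1, a receptor-type tyrosine phosphatase, was abundant in both groups: 8.37, 6.97, 4.94 and 6.42 in XX CA1 clones and 4.20, 3.82 and 3.31 in cumulus clones (difference 2.90, SE 0.63, adjusted p = 0.00237). Its XX CA1 values spread over more than 3 log2 units, with replicate 1 highest and replicate 3 lowest. The other genes among the 15 largest rises include Rec8, a meiotic cohesin subunit (2.66), Patl2, an RNA-binding protein of oocytes (2.80, a call lost without cumulus replicate 3), H2-Oa, of the MHC class II accessory molecule (2.76), the histone gene H4c14 (2.81) and Bahcc1, a chromatin reader (2.78). Itgb5, an integrin subunit, was at 5.53, 5.08, 5.12 and 5.03 in XX CA1 clones and at 3.34, 3.41 and 2.49 in cumulus clones (difference 2.11, adjusted p = 0.000568).

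The donor CA1 neuron was also used in male clones, against neonatal Sertoli donors. Of the 2191 genes higher in XX CA1 clones, 255 were also higher in XY CA1 minus Sertoli, which is 11.6% of the first list and 29.3% of the 871 in the second. Of the 857 lower genes 119 were also lower there, 13.9% of the first list and 11.9% of the 998 in the second. Over all genes tested, 5.52% were higher and 6.32% lower in XY CA1 minus Sertoli, and 13.9% and 5.43% here. Called the opposite way there were 96 of the 2191 higher genes (4.38%) and 22 of the 857 lower genes (2.57%). Apoc2, the cofactor of lipoprotein lipase, was at 3.54, 2.49, 1.2 and 1.64 in XX CA1 clones and at -0.47, -1.99 and 0.40 in cumulus clones (difference 2.90, adjusted p = 0.00264), and it differed by 2.41 in XY CA1 minus Sertoli (adjusted p = 0.00936). Masp2, a serine protease of the complement system, was at 0.11, -0.98, -0.24 and -3.29 in XX CA1 clones and on the floor in all 3 cumulus clones, so it was at least 5.03-fold higher (adjusted p = 0.00549; its other probe gave 1.19), and it differed by 2.33 in XY CA1 minus Sertoli (adjusted p = 0.00525). Vegfb, a growth factor of the VEGF family, differed by 2.05 and by 2.14.

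Of the genes lower with CA1 donors in both sexes, the X-linked gene Dcaf12l2 was at -1.25, -0.48, 0.61 and 0.03 in XX CA1 clones and at 2.33, 2.64 and 2.55 in cumulus clones (difference -2.78, adjusted p = 0.0101), and it differed by -3.44 in XY CA1 minus Sertoli (adjusted p = 0.00203). Fgl1, a fibrinogen-like secreted protein, differed by -2.41 and by -3.41, and the first call was lost without XX CA1 replicate 1 or cumulus replicate 2. The immediate early transcription factor Junb was at 0.80, 0.44, 0.57 and 0.47 in XX CA1 clones and at 2.48, 2.82 and 2.78 in cumulus clones (difference -2.12, adjusted p = 0.000624), and it differed by -2.70 in the males, while its other probe gave 0.76 here. Itgb3 (-2.98) was in the same group, and its other probe gave 0.24. XX Purkinje minus XX IVF shared 518 higher genes with this comparison (23.6% of the 2191 and 25.1% of its 2060) and 107 lower genes (12.5% of the 857 and 10.2% of its 1054). Over all genes tested, 13% were higher and 6.67% lower in XX Purkinje minus XX IVF. It called 74 of the 2191 (3.38%) and 51 of the 857 (5.95%) the opposite way.

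Most of the largest falls belonged to genes that vary together over the arrays. Pdk2, a kinase that restrains pyruvate dehydrogenase, was at -3.43, -3.43, -3.06 and -3.43 in XX CA1 clones, on or just above the floor, and at 3.1, 2.67 and 2.04 in cumulus clones (difference -5.94, SE 1.18, adjusted p = 0.00109). Over the 33 arrays 53 genes on 18 chromosomes had a Pearson correlation of 0.8 or more with Pdk2, a description across arrays that share groups and array sets. The 53 are unlike in role: they include the proteoglycan Gpc2, the semaphorin Sema6b, the protein kinase Prkcb, the collagen chain Col9a2, the cytokine Csf3, the glial transcription factor Olig2 and the olfactory receptor Olfr860. Of them 50 were called lower, which the choice of the set favours, since the 7 arrays compared are among the 33. Over the 26 other arrays alone 47 genes, Pdk2 included, reached 0.8, of which 44 were among the 53 and 42 were called lower. The 53 genes make up 13 of the 15 largest falls named by rank and 33 of the 50 genes called lower by more than 3 log2 units. Without the 53 genes, a count made after seeing the data, 807 lower genes remained.

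The median of this set was -3.43 to -3.06 on the XX CA1 arrays and -0.20 to 1.35 on the cumulus arrays. It was above -1 on 3 of 3 cumulus arrays and 0 of 4 XX CA1 arrays. In the other groups it was above -1 on 2 of 4 XY CA1 arrays, 1 of 4 XY Purkinje arrays, 1 of 3 XX IVF arrays and 1 of 7 XY IVF arrays, and on 0 of 4 Sertoli and 0 of 4 XX Purkinje arrays. It varied within groups: it was -3.43 to 0.57 in XX IVF embryos, -3.43 to 0.62 in XY IVF embryos, -2.53 to 0.73 in XY CA1 clones and -3.16 to -0.07 in XY Purkinje clones. What raises these genes together was not tested.

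**Figure D5:**
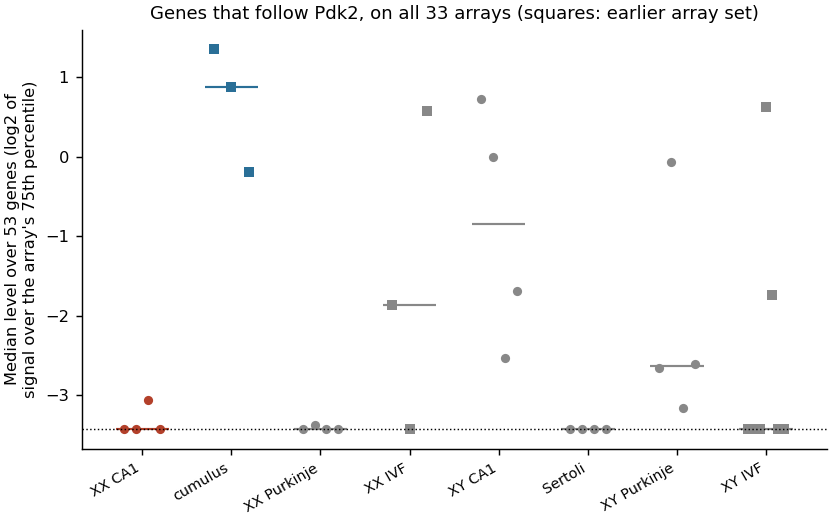
Median level of the 53 genes that follow Pdk2 (log2 of signal over the 75th percentile, vertical axis) on each of the 33 arrays, by group. Squares mark the earlier array set, circles the present one, short lines the group medians and the dotted line the floor. All 3 cumulus arrays are high and all 4 XX CA1 arrays lie at or near the floor, while XX IVF, XY CA1, XY Purkinje and XY IVF arrays fall on both sides of -1.

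Outside that set, 12 lower genes with a correlation under 0.5 with Pdk2 were picked after their values were seen. BC028454, an RNA with no assigned role here, was at -0.89, -1.02, -1.23 and -1.70 in XX CA1 clones and at 3.14, 3.22 and 1.32 in cumulus clones (difference -3.77, adjusted p = 0.000216). Slc6a14, an X-linked importer of neutral and basic amino acids, was at -0.48, -3.43, -1.64 and -0.56 in XX CA1 clones and at 1.71, 1.28 and 2.81 in cumulus clones (difference -3.46, adjusted p = 0.00221), and Slc1a4, an importer of small neutral amino acids, differed by -3.26 (adjusted p = 0.00688), a call lost without cumulus replicate 3, and by -1.2 in its other probe. These are the only 2 of 26 amino acid transport genes that were called in this fit, 7.69% against 19.3% of all genes. Emb, a chaperone of lactate transporters, was at 0.99, -3.43, -0.33 and -0.84 in XX CA1 clones and at 4.04, 1.47 and 1.91 in cumulus clones (difference -3.38, adjusted p = 0.00718). Timp3, an inhibitor of matrix proteases, differed by -2.85, a call lost without XX CA1 replicate 3 or cumulus replicate 2 or 3.

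Histone deacetylases such as Hdac1 and Hdac2 are the target of the TSA that all 7 embryos had received. The list of 29 deacetylase and corepressor genes is wider, and also holds sirtuins, which TSA does not target. In this list 5 genes were higher and 3 lower in XX CA1 clones, 27.6% called against 19.3% of all genes. Hdac2 was at -0.20, 0.93, 1.04 and 0.72 in XX CA1 clones and at 2.12, 2.16 and 2.85 in cumulus clones (difference -1.76, SE 0.51, adjusted p = 0.0172), a call lost without XX CA1 replicate 1 or cumulus replicate 3, whereas its close relative Hdac1 was higher by 1.03. Rcor1, of the CoREST corepressor, was lower (-1.41, adjusted p = 0.00156), and its other probe gave 0.40. The mitochondrial deacetylase Sirt3 (1.31) and the nuclear Sirt7 (1.52) were higher, and the Sirt3 call was lost without cumulus replicate 3. Of 53 other histone-modifying genes 18.9% were called, near the 19.3% of all genes: 8 were higher, among them the H3K9 methyltransferase Ehmt2 (1.22, adjusted p = 0.0031), and 2 were lower, the X-linked H3K27 demethylase Kdm6a (-1.44, adjusted p = 0.000767) and the acetyltransferase Kat2b (-1.57), whose other probe gave -0.24. Of 23 DNA methylation genes only Tet2 was called (-1.58, adjusted p = 0.0143), its other probe gave 1.1, and the call was lost without XX CA1 replicate 2 or cumulus replicate 2. Dnmt1 (0.75, adjusted p = 0.171) and Dnmt3b (0.26, adjusted p = 0.515) were not.

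Of 549 X-linked genes 51 were higher and 34 lower, which is 15.5% called against 19.3% of all genes. Their median was -0.01, or -0.13 relative to all genes, and it stayed below that of all genes in 18 settings (-0.27 to -0.11). The X was the only chromosome of the 20 tested with a negative median, and no test of this difference was made. X-linked genes were dim, with a median level of -1.38 to -0.66 on XX CA1 arrays and -1.15 to -0.30 on cumulus arrays. Over all genes the median difference was 0.00 in the third with the lowest levels, 0.14 in the middle and 0.37 in the highest. The part of level in the X median was not tested. Xist differed by -0.02 (SE 0.54, adjusted p = 1) and its antisense Tsix, near the floor in both groups, by -0.02. The reproductive homeobox gene Rhox5 was high in both, at 7.54, 7.21, 6.48 and 4.93 in XX CA1 clones and at 6.92, 5.53 and 7.02 in cumulus clones. Of the Rhox genes 0 of 6 passed the test, and of the Magea and Xlr genes 0 of 12.

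Imprinted genes are expressed from 1 parental allele. Of 47 canonical imprinted genes 6 were higher and 1 lower, 14.9% called against 19.3% of all genes. The one lower was H19, a maternally expressed growth-restraining RNA, at -2.05, -1.65, -2.95 and 0.31 in XX CA1 clones and at 0.80, 1.05 and 2.33 in cumulus clones (difference -2.98, SE 0.82, adjusted p = 0.0125), XX CA1 replicate 4 stood above its group, and the call was lost without cumulus replicate 3. Of 30 non-canonical imprinted genes, whose imprint is carried by H3K27 methylation from the oocyte and which clones are known to lose, 1 was higher and 2 lower. That is 10% called. Sfmbt2 (0.37, adjusted p = 0.584) and Slc38a4 (-0.20, adjusted p = 0.751) were not called, and Gab1, an adaptor of growth factor signalling in the placenta, was lower: 2.64, 2.60, 2.23 and 2.95 in XX CA1 clones against 3.73, 3.86 and 3.52 in cumulus clones (difference -1.10, SE 0.36, adjusted p = 0.0314). The Gab1 call was lost when XX CA1 replicate 1, 2 or 3 or any cumulus replicate was left out.

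Lipid droplet genes changed in both directions, 10 higher and 3 lower of 31, 41.9% called against 19.3% of all genes. Cidea, a protein that fuses lipid droplets, was at 2.02, 3.41, 3.24 and 0.35 in XX CA1 clones and at -0.67, 0.77 and -1.06 in cumulus clones (difference 2.57, SE 0.75, adjusted p = 0.0172). XX CA1 replicate 4 lay inside the cumulus range, and the call was lost without XX CA1 replicate 2 or without cumulus replicate 1 or 3. Its relative Cidec (1.65), the droplet coat gene Plin2 (0.94), the triglyceride lipase Pnpla2 (1.36) and the monoglyceride lipase Mgll (1.46) were higher too. Lpl, the extracellular lipase that Apoc2 activates, was lower (-2.07, adjusted p = 0.0376), but the call was lost without XX CA1 replicate 2 or 3 or any 1 cumulus replicate, and with normexp, and its other probe gave -0.91. Also lower was Abhd5, the activator of Pnpla2 (-1.75, adjusted p = 0.00641).

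Chaperones were lower on balance, with 7 lower and 2 higher of 34 and a median of -0.47 relative to all genes, which stayed negative in all 18 settings (-0.78 to -0.40). The share called was 26.5%, against 19.3% of all genes. The list medians of single arrays overlapped, at 5.41 to 5.71 on XX CA1 and 5.56 to 5.93 on cumulus arrays. The chaperonin subunit Cct6a was at -0.83, 0.81, 1.56 and 0.71 in XX CA1 clones and at 2.56, 2.18 and 1.98 in cumulus clones (difference -1.68, adjusted p = 0.0348). Cct3 (-0.91), Cct4 (-0.77), Hspa8 (-0.60) and Hsp90ab1 (-0.65) were also called lower. The count of lower chaperones was 2 without XX CA1 replicate 1, cumulus replicate 1 or cumulus replicate 2, and 1 without cumulus replicate 3 or with normexp. The Cct6a call was among those lost each time. In the stress response list 4 of 46 genes were higher and 5 lower, a share of 19.6% near the 19.3% of all genes. Gars, a tRNA synthetase, was at 2.13, 2.62, 2.54 and 2.71 in XX CA1 clones and at 4.32, 3.88 and 3.77 in cumulus clones (difference -1.49, SE 0.22, adjusted p = 7.07e-05).

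Of 30 germ cell genes that DNA methylation silences 5 were higher and 1 lower, a share of 20% near the 19.3% of all genes. Mael, a factor of transposon silencing, was at 4.83, 2.80, 2.52 and 1.54 in XX CA1 clones and at -2.31, 2.43 and -0.21 in cumulus clones (difference 2.95, adjusted p = 0.0139), with cumulus replicate 2 inside the XX CA1 range, and the call was lost without XX CA1 replicate 1 or cumulus replicate 1. Hormad1, a protein of meiotic chromosome axes, was at -0.72, -1.45, -1.53 and -2.32 in XX CA1 clones and on the floor in all 3 cumulus clones, so it was at least 3.8-fold higher (adjusted p = 0.00771), while its other probe gave 0.86 and was not called.

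In the list of FGF, Nodal, BMP and Wnt signalling 2 of 49 genes were higher and 2 lower, 8.16% called against 19.3% of all genes. Smad1, which carries BMP signals, was at -2.83, -1.15, -1.69 and -2.60 in XX CA1 clones and at 0.30, 0.73 and -0.01 in cumulus clones (difference -2.41, SE 0.49, adjusted p = 0.00131), and its other probe gave 0.17. Of 36 matrix and adhesion genes 6 were higher and 4 lower (27.8% called), the lower ones including the integrin Itgb1 (-1.61) and Timp3. Of 22 Hippo pathway genes 2 were higher and 1 lower, 13.6% called against 19.3% of all genes. The lower one was the effector Yap1, at -0.96, 0.53, 1.64 and 0.65 in XX CA1 clones and at 2.48, 3.28 and 1.83 in cumulus clones (difference -2.07, adjusted p = 0.0109). The Yap1 call was lost without XX CA1 replicate 1 or cumulus replicate 2. The higher ones were Tead2 (0.85) and Stk4 (0.77), and other probes gave -0.55 for Tead2 and -1.51 to 0.00 for Stk4. In glycolysis 6 of 32 genes were higher, among them Gpi1 (1.07) and the glucose transporter Slc2a1 (1.04), and 2 were lower, 1 of them Pdk2. The share called was 25%. The X-linked glycolytic gene Pgk1 was not called (-0.90, adjusted p = 0.331). Of 42 antioxidant genes 5 were higher and 1 lower, 14.3% called. One of the higher was Gstp1, a glutathione transferase, at 6.56, 6.49, 6.42 and 6.16 in XX CA1 clones and at 5.30, 4.52 and 4.88 in cumulus clones (difference 1.51, adjusted p = 0.000533), whose other probe gave 0.29.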

How the data were processed

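Total RNA of single blastocysts had been linearly amplified, labelled with Cy3 and hybridised to 1-colour 4x44K arrays, per the labels. The deposited scanner files hold spot intensities on a linear scale. The processed signal used here had been background-corrected by Agilent Feature Extraction, per the file headers (10.5.1.1 for XX CA1, 9.5.3.1 for cumulus). Processed spots at or below 0 were 20.5% to 23.3% of cumulus arrays and 0% of XX CA1 arrays, hence 1 shared floor of 0.0929 of the 75th percentile, chosen after the data were seen. The deposited value table holds log2 values, which served as an alternative. On the 14 XX arrays these values match the deposited intensities after centring each probe over those arrays (median absolute difference 0.0051). This check covers the XX arrays alone. The authors' steps are not given in the sources used here.

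Control spots and flagged outliers were dropped, spots of a probe averaged, and log2 of signal over the array's 75th percentile taken. A probe was kept if it was well above background on more than 50% of arrays of a group and above the floor on at least 3 arrays (22789 of 41174 probes). The brightest probe stood for its gene, and for called genes chosen by the rule below other probes are given where they were not called. Probes were named through RefSeq accessions, symbols or synonyms, or kept the file's name (8455 probes). limma 3.58.1 fitted 1 mean per group to all 33 arrays (25 residual degrees of freedom). Genes that sat on the floor, or below background, throughout 1 group have only a bound ("at least"). The number of arrays limits the precision. The normexp alternative used median rather than mean spot signals, which both array sets hold.

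The groups, the 37 gene lists and the alternatives were chosen with earlier results of these data known. Named genes are the 15 largest rises and falls above background on all 7 arrays and without overlap, up to 8 bounds each way, 6 each way shared with XY CA1 minus Sertoli, up to 4 called genes per list (or the 2 brightest where none was called) and a fixed set of lineage, X-linked and imprinted genes. Other genes are named as list members, and 12 lower genes after their values were seen. Some genes are not reported here.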

Additional observations from a re-analysis of the deposited data

Results flagged for a closer look

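Among the 4 XX CA1 clones, 20 of the named genes and 3 list medians had 1 array far from the other 3, by the gap to its nearest neighbour over the whole range. Chance alone sets apart about 1 in 20 groups tested this way. Where 3 arrays lay on or near the floor the gap means little: this holds for Pdk2 (-3.06 against a group median of -3.43), Gpc2 (-1.97), Sema6b (-2.28), Tmem35a (-1.74), Trim46 (-2.74), Slc12a9 (0.25), NAP037944-1 (-1.98), NAP053178-1 (-1.46), Eno1 (-3.17, a probe near the floor), Atf3 (-2.72) and Tsix (-1.38). The first 8 of these belong to the genes that follow Pdk2.

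Above the floor, the array set apart was low for Asf1b (2.50 against a median of 4.04), Bahcc1 (-0.29 against 0.24), Gtsf1 (1.1 against 2.80) and Sox2 (0.94 against 1.5). It was high for BC034076 (3.14 against 2.72), Chaf1b (3.64 against 3.37), Fdxr (1.27 against 0.70), Mrpl55 (4.78 against 4.08) and Wnt3a (5.01 against 4.09). For the list medians it was 2.25 against 2.09 for the stress response, -0.032 against 0.66 for amino acid transport and 4.78 against 5.12 for the proteasome.

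XX CA1 replicate 1 was the array farthest from its group's median in 45.2% of genes, against 13.5% to 25.7% for the other 3.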

How the results depend on the processing

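The count of 3048 called genes (2191 higher, 857 lower) became 801 with normexp background correction (576 and 225), 1863 when only the 7 arrays were fitted, and 0 with the replicate number as a block, where limma left 3818 genes at an unadjusted p under 0.05. Replicate numbers do not pair these samples: the correlations of same-numbered deviations were 0.063, 0.018 and 0.015. Leaving out 1 array gave 1787 to 3337 calls. Among the other settings the count was 2086 to 3554. XY CA1 minus Sertoli went to 348 calls with normexp and 1170 with scaling to the array median. Of the 151 genes that the naming rule chose and the test called, 44 were called in every setting but the block, 73 were lost with normexp and 34 without XX CA1 replicate 1. Averaging all kept probes turned Prdx6 to -0.24 and Stk4 to -0.36. In the authors' table the Y-linked Ddx3y (1.95) and Eif2s3y (2.25), on the floor here in both groups, differed. The causes were not tested. Differences near the floor are limits only.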
